A study of Mus musculus with 4 samples.

Results

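The regions described here are stretches of the mouse liver genome that carried 1 island of acetylated histone H4 lysine 16 (H4K16ac) in a wild-type mouse (WT) and 1 overlapping island in a Sirt1-deficient mouse (MT), with the WT island the longer by at least 1000 bp. They were chosen by the measured lengths of the islands. Islands of both lists that overlapped by at least 1 bp were merged into 36418 regions, of which 14719 held islands of both mice. Among these, 12139 held exactly 1 island of each mouse, and 11900 of them spanned less than 10 kb. In 1829 of the 11900 (15.4%) the WT island was the longer by 1000 bp or more. These 1829 regions are 12.4% of the shared regions, and their WT islands are 6.97% of the 26227 islands in the WT list. No region was dropped, and 1828 of the 1829 had input reads in both mice.

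The study asked how the loss of Sirt1 changes histone acetylation in liver, and measured H4K16ac by chromatin immunoprecipitation and sequencing (ChIP-Seq). Per the labels, both mice were 3 months old and of the same mixed 129/FVB/Black Swiss background, were kept under a 12-h light regime, and gave their livers between 9 and 11 AM. The MT mouse was Sirt1-/- in every tissue and the WT mouse Sirt1+/+, both from crosses of heterozygous parents and both males per the study's methods. Each mouse gave 1 ChIP library, made with an antibody against H4K16ac from Santa Cruz, and 1 input library of sonicated chromatin without the antibody. A whole-body deletion acts in all cells of the liver and throughout development, and poor viability of such mice limits which animals reach adulthood. Pieces of whole liver hold hepatocytes together with blood vessel, bile duct and immune cells, so a change in every cell and a change in the share of some cells cannot be told apart.

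H4K16ac sits on the tail of histone H4 and loosens the packing of nucleosomes into compact chromatin. In mammals the acetyltransferase MOF (Kat8) places most of it. SIRT1, a deacetylase that needs NAD+ as a cofactor, is among the enzymes that take it off. The mark is found over active promoters and gene bodies, in patches that can run for several kb.

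An island is a run of 200 bp windows that held more ChIP reads than a random background would give, joined over gaps of up to 400 bp, so that island lengths move in steps of 200 bp. The lists hold islands with a false discovery rate (FDR, the authors' expected share of false islands) of at most 0.001 against input. They give positions and reads, not gene names. No genome or annotation of their build, mm8, was used here, so promoters, genes, sequences and the Sirt1 locus of the MT mouse were not analysed here. With 1 library per condition there is no replicate check. No p-value between the mice is given, and the intervals below cover counting error only.

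In 4089 of the 11900 regions WT had the longer island, in 6557 MT did, and 1254 pairs were equal in length. By the same cutoff of 1000 bp, 3656 regions (30.7%) were wider in MT. Of the 5485 regions that were unequal by the cutoff, the regions wider in WT made up 33.3%, with a 95% Wilson interval of 32.1 to 34.6%. The MT list as a whole was the longer, with 28377 islands and 2916128 ChIP reads inside them against 26227 islands and 2264125 reads in WT.

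**Figure D1:**
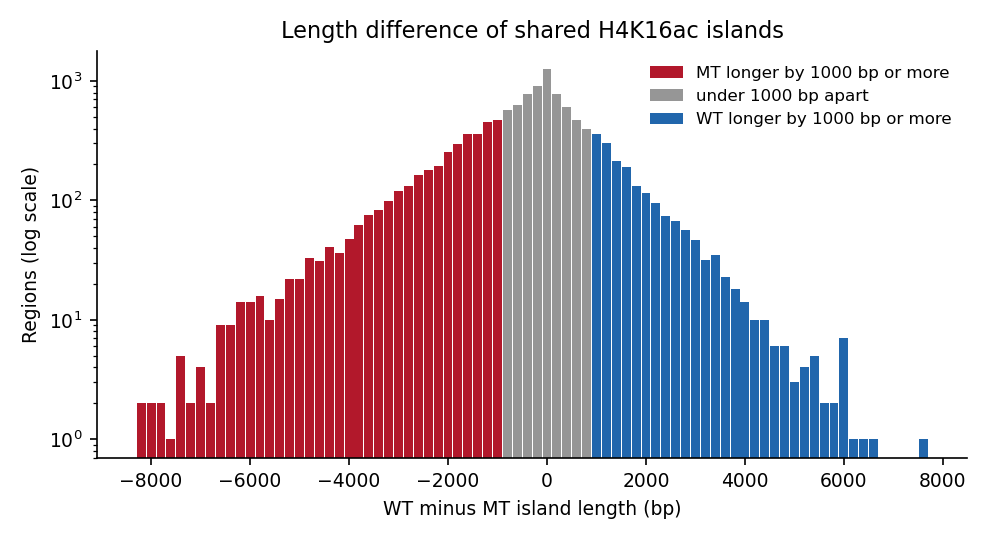
Number of regions (log scale) at each difference in island length, WT minus MT, in bins of 200 bp over the 11900 regions with 1 island of each mouse and a span below 10 kb. Blue bars are the 1829 regions chosen as wider in WT, red bars the 3656 wider in MT by the same cutoff and grey bars those under 1000 bp apart. The red side reaches further and stands higher at each cutoff up to 6000 bp.

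The plot of length differences shows one peak at 0 and no gap at the cutoff, with a side on which WT was longer that falls off faster than the other. At the cutoff itself, 357 of the regions wider in WT had a difference of exactly 1000 bp. Their median WT island was 2800 bp long with 85 ChIP reads, and their median MT island was 1800 bp long with 65 reads. Just outside it, 394 regions had a difference of 800 bp, with medians of 2800 bp and 81 reads in WT and 2000 bp and 67 reads in MT. The regions wider in WT are thus one stretch of a continuous range of lengths.

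The WT islands of the 1829 regions ran from 1400 to 9800 bp with a median of 3800 bp. The MT islands in the same regions ran from 200 to 8600 bp with a median of 2000 bp. The difference had a median of 1600 bp, quartiles of 1200 and 2200 bp and a highest value of 7600 bp. In 807 regions (44.1%) the WT island was at least 2 times as long as the MT island, and in 84 the MT island was 600 bp or less. Most differences were modest: 872 regions (47.7%) lay between 1000 and 1400 bp, 729 (39.9%) between 1600 and 2800 bp, and 228 (12.5%) at 3000 bp or more.

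The MT island lay wholly inside the WT island in 1350 regions (73.8%, 71.7 to 75.8%). In 732 (40.0%) the WT island ran past both ends of the MT island, in 343 (18.8%) it ran past the lower-numbered end alone with the other end shared, and in 275 past the higher-numbered end alone. In the other regions the islands were offset. The MT island reached past the WT island at the lower end in 239 and at the upper end in 240. Where the WT island ran past both ends, one side was at least 3 times the other in 384 of 732 regions (52.5%). The longer of the extensions had a median of 1600 bp, and the longest was 6600 bp. Regions wider in MT had the shorter island wholly inside the longer in 79.9% (78.5 to 81.1%). Where their MT island ran past both ends, one side was at least 3 times the other in 50.3%.

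The 10 regions with the largest difference in length show the pattern at single loci. The first was chr8:94109801-94118600, where the WT island covered 8800 bp with 212 ChIP and 145 input reads. The MT island there covered 1200 bp with 37 ChIP and 16 input reads. The authors' fold of ChIP over input, an average over the whole island, was 1.33 in WT and 2.19 for the short MT island.

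The second, chr3:108913201-108920600, had a WT island of 7400 bp with 192 ChIP and 98 input reads and an MT island of 800 bp with 36 ChIP and 13 input reads. At chr2:167853201-167863000, a WT island of 9800 bp with 277 ChIP reads faced an MT island of 3400 bp with 120. At chr3:104647601-104655000 both islands began at the same window, and the WT island ran on for 7400 bp with 243 ChIP reads while the MT island ended after 1200 bp with 48. This last WT island was the strongest of these 4 over input, with a fold of 2.03 and an FDR of 4.38e-22.

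The other 6 all had a difference of 6000 bp. They were chr5:145134601-145144200, with 252 ChIP reads in WT and 93 in MT, chr6:120151601-120160600, with 252 and 94, and chr14:99231801-99239600, with 203 and 89. The remainder were chr1:136586801-136594600, with 193 and 51, chr1:16157201-16164000, with 187 and 46, and chr6:35802401-35809600, with 186 and 39. All 10 MT islands lay wholly inside their WT islands. At chr1:16157201-16164000 the MT island of 800 bp held 57.5 ChIP reads per kb against 28.8 scaled reads per kb over the WT island, the widest gap in density of the 10. At chr5:145134601-145144200 the order was the other way, with 27.5 scaled reads per kb in WT and 25.8 in MT.

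**Figure D2:**
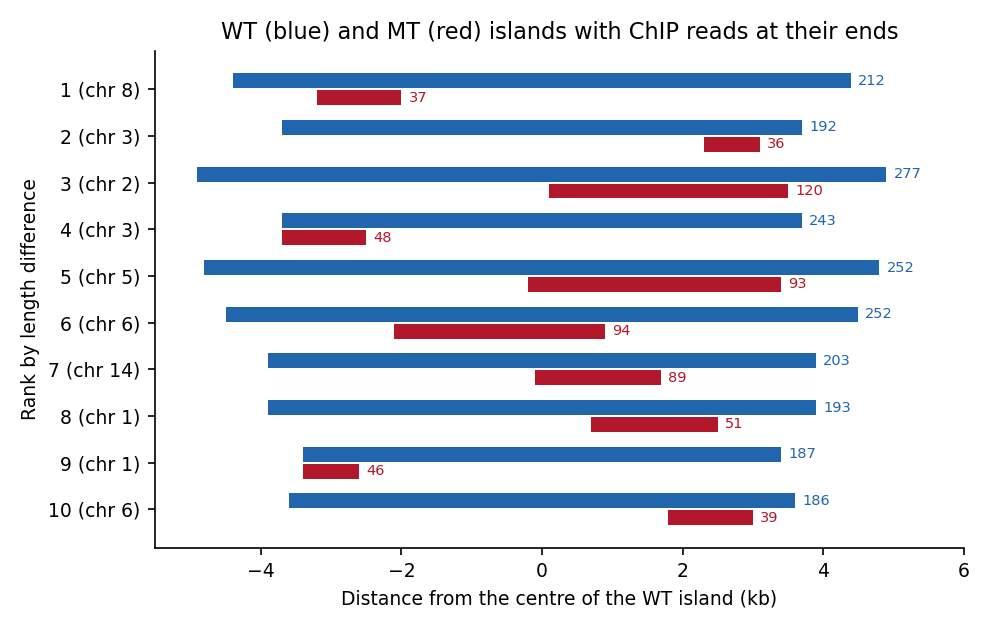
The 10 regions with the largest WT minus MT island length, from the first (top) to the tenth; the x axis is the distance in kb from the centre of the WT island, blue bars are WT islands and red bars MT islands, and the number at the end of each bar is its ChIP read count. Each MT island lies inside the WT island, 2 of them start at the same window as the WT island, and the counts run from 186 to 277 in WT and from 36 to 120 in MT.

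The drawing of these 10 regions also shows where the MT island sat within the WT island. In 8 of the 10 the WT island ran at least 2 times as far on one side as on the other. Whether this departs from random placement was not tested.

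ChIP reads followed length. Before scaling, the WT islands of the 1829 regions held 40 to 435 ChIP reads, with a median of 109, and the MT islands 19 to 391, with a median of 66. Input reads had medians of 50 and 29. To set the libraries side by side, WT counts were multiplied by the factor by which the MT library was estimated to be larger, 1.05 for ChIP and 1.09 for input. The factors were taken from input density in the shared regions and from the ChIP over input scale behind the authors' fold. After this, 1779 of 1829 regions (97.3%) had more ChIP reads in WT, against 37.9% of the 11900. The median log2 ratio of WT over MT was 0.66, with quartiles of 0.41 and 0.98 and a range of -0.48 to 2.67, against a median of -0.15 over the 11900. These counts come from the same comparison that chose the regions, and each count was taken within that mouse's own island, so MT reads in the stretch that only the WT island covers are in none of them.

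A difference of at least 1.5-fold upward in WT was present in 1045 of the 1829 regions (57.1%), against 10.1% of the 11900. The exact 95% counting interval of the scaled ratio lay wholly above equal in 1312 (71.7%), against 13.5%. In 516 regions the interval included equal, so a difference in the number of reads was not detectable there at this depth although the lengths differed. In 1 region, chr15:88900401-88907000, it lay wholly below equal.

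The largest ratios came from regions with very short MT islands. At chr10:98637201-98643000 the WT island of 5800 bp held 146 ChIP reads and the MT island of 400 bp held 24, a log2 ratio of 2.67 with a counting interval of 4.12- to 10.3-fold. At chr1:71942401-71949000 the counts were 218 and 36, a log2 ratio of 2.66. At chr13:55216201-55221200 they were 169 and 28, also a log2 ratio of 2.66. The next 2 were the regions with the largest length differences, on chromosomes 8 and 3. These 5 regions had no more than 37 ChIP reads in MT, which makes their intervals wide.

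At the other end, 50 regions had no more scaled reads in WT although the WT island was longer. The lowest was chr15:88900401-88907000, with 244 ChIP reads over 6400 bp in WT and 356 over 5400 bp in MT, a log2 ratio of -0.48 with an interval of 0.607- to 0.847-fold. It was followed by chr16:37571401-37576000 with 101 and 130 reads, chr8:87857601-87862200 with 121 and 154, chr12:88153201-88157000 with 127 and 160, and chr6:54526401-54531800 with 156 and 190. The intervals of these 4 included equal. In the 50 regions the median MT fold over input was 2.72, against 2.15 over the 1829, and the median WT fold was 1.93 in both.

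Per kb of island the order turned round. The median density of ChIP reads was 30.2 scaled reads per kb in the WT islands and 35.8 in the MT islands, and 310 of the 1829 regions (16.9%) had the higher density in WT, against 51.4% of the 11900. The median log2 ratio of density was -0.24, with quartiles of -0.45 and -0.071, against 0.011 over the 11900. The direction depends on the scaling: with the totals over all listed islands set equal, the median over the 1829 was 0.057. Density was at least 1.5-fold lower in WT in 257 regions (14.1%), against 3.44% of the 11900, and at least 1.5-fold higher in 2, against 4.77%. The counting interval lay wholly below equal in 431 (23.6%), against 6.76%, and wholly above it in 10 (0.547%), against 7.76%. Density over an island's own length is not independent of the length that chose the region.

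The 2 regions that were both wider and at least 1.5-fold denser in WT are named here after their values were seen. At chr4:101199601-101204600 the WT island covered 5000 bp with 185 ChIP and 54 input reads and the MT island 2600 bp with 63 ChIP and 31 input reads. This gave 38.7 scaled reads per kb in WT against 24.2 in MT, a log2 ratio of 0.68 with an interval of 1.19- to 2.16-fold. At chr3:132941801-132947800 the WT island covered 6000 bp with 190 ChIP and 68 input reads and the MT island 3000 bp with 64 ChIP and 28 input reads. The densities there were 33.1 and 21.3 reads per kb, a log2 ratio of 0.64 with an interval of 1.16- to 2.10-fold. The authors' fold over input was also the higher in WT at both, 3.11 against 1.92 and 2.54 against 2.16.

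**Figure D3:**
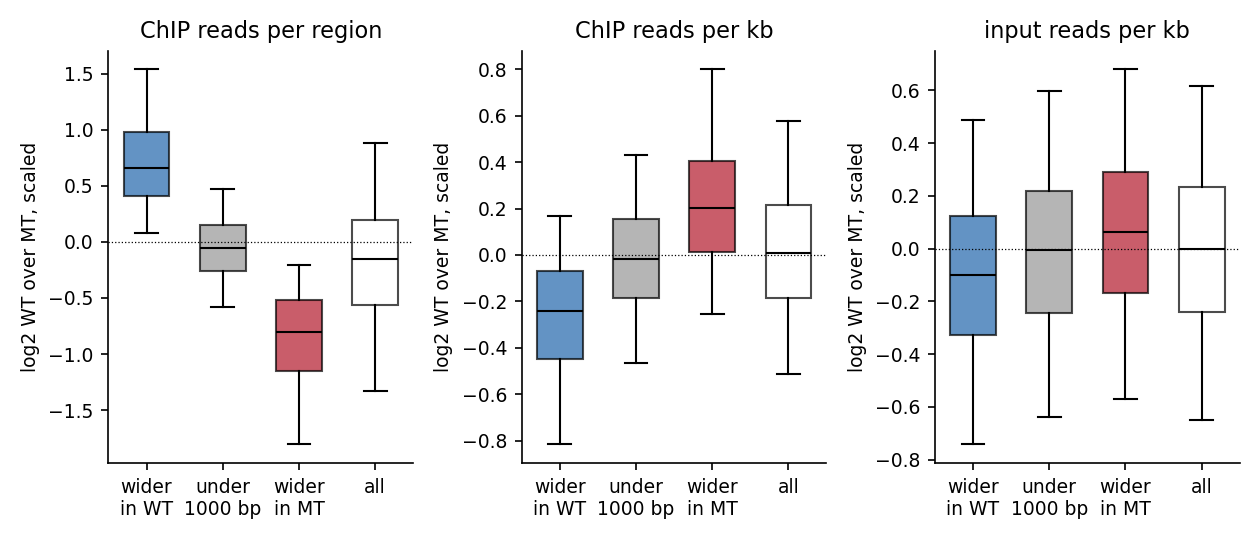
Scaled log2 ratios of WT over MT for ChIP reads per region (left), ChIP reads per kb of island (middle) and input reads per kb (right), in the 1829 regions wider in WT, the 6415 under 1000 bp apart, the 3656 wider in MT and all 11900. Boxes span the quartiles with a line at the median, whiskers run from the 5th to the 95th percentile of regions, and the dotted line marks equal values; the sets wider in WT and wider in MT have medians on opposite sides of 0 in each panel, with the scaling by input density in shared regions.

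The regions wider in MT were the mirror image in all 3 measures of that plot. Their median log2 ratio of WT over MT was -0.80 for ChIP reads, 0.20 for ChIP density and 0.062 for input density. With this scaling, the mouse with the wider island had more ChIP reads and a lower median density, whichever mouse it was. With list totals set equal the density of the regions wider in WT turned to 0.057. The sizes were close, with a density ratio of -0.24 where WT was wider and 0.20 where MT was wider, each given as WT over MT.

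Summed over the 1829 regions, the WT islands held 222237 ChIP reads over 7.49 Mb and the MT islands 150377 over 4.12 Mb. This came to 31.1 scaled reads per kb in WT and 36.5 in MT. The same sums for input were 15.1 scaled reads per kb in WT and 15.9 in MT. The lists give reads per whole island, so the reads in the stretch covered by the WT island alone were not analysed here.

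Input has no antibody step, and its direction between the mice depended on the scaling. Its density in the 1828 regions with input reads in both mice had a median log2 ratio of -0.10, against -0.0012 over all regions. The median was -0.016 with input set equal over the 1829 regions and 0.23 with the totals over all listed islands set equal. With the scaling used here it was at least 1.5-fold lower in WT in 171 regions (9.35%), against 6.33%, and at least 1.5-fold higher in 62 (3.39%), against 5.71%. The part of this input difference in the length and ChIP differences was not tested. One region, chr15:8197401-8199200, named after its values were seen, had no input read in MT. Its MT island was a single 200 bp window with 19 ChIP reads, and its listed MT fold of 71.9 rests on a count of 0.

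The authors' fold of ChIP over input, which corrects each island by its own input, was lower in WT in most of the regions. Its median was 1.93 in WT and 2.15 in MT, and it was higher in WT in 599 of 1829 (32.8%), against 51.6% of the 11900. A fold of at least 2 was reached by 799 of the WT islands (43.7%) and 1108 of the MT islands (60.6%). Over the 11900 regions these shares were 60.6% in WT and 59.6% in MT. The WT islands in the chosen regions thus reached this fold less often than over the 11900. The MT islands were near their share over the 11900. Regions wider in MT were the reverse, with shares of 49.3% in MT and 62.7% in WT. The share was lower for the longer island in either mouse.

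The FDR, which depends on the number of reads as well as on the fold, ran the other way. An FDR below 1e-20 was listed for 269 WT islands (14.7%) and 220 MT islands (12.0%), and for both islands in 136 regions (7.44%). Over the 11900 the shares were 12.8% in WT, 18.3% in MT and 8.60% in both. In those 136 the WT island had a median of 5600 bp and 201 ChIP reads and the MT island 3500 bp and 157 reads, with a median log2 ratio of reads of 0.33. That ratio was below the 0.66 of the whole set, while the median log2 ratio of density was -0.25, against -0.24.

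The regions with the most WT ChIP reads belong to this kind. At chr9:43502401-43511600 the WT island of 9200 bp held 435 ChIP reads and the MT island of 7000 bp held 379. At chr10:80079801-80088800 the WT island of 9000 bp held 430 and the MT island of 4600 bp held 366, which left the scaled density in WT at 0.628 times that in MT. Next came chr5:122783401-122792400 with 404 and 355 reads, chr19:10019001-10028000 with 391 and 348, and chr6:134664001-134671000 with 389 and 288. After scaling, all 5 had more reads in WT, by 1.18- to 1.41-fold, with intervals above equal. The last of them was also the denser in WT, at 58.2 scaled reads per kb against 51.4, with an interval of 0.968 to 1.32 for the ratio.

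The highest fold over input in WT was at chr13:85762801-85764600, at 8.57, with 66 ChIP and 7 input reads over 1800 bp. The MT island there had a fold of 3.31 from 28 ChIP and 8 input reads over 600 bp. The second was chr14:78131601-78134000, with a fold of 7.06 in WT and 7.44 in MT. The third was chr6:28451001-28455800, with 6.17 in WT from 163 ChIP and 24 input reads and 2.65 in MT from 42 ChIP and 15 input reads. In 2 of the 3 the WT fold was more than 2 times the MT fold, and there the scaled input density was lower in WT, with log2 ratios of -1.65 and -1.20, from few reads.

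The read difference grew with the length difference, while the density difference hardly moved with it. Reads were counted within each mouse's own island, so their ratio rises with the length difference largely by construction. The median log2 ratio of reads was 0.48 for differences of 1000 to 1400 bp, 0.78 for 1600 to 2800 bp and 1.25 for 3000 bp or more. The median log2 ratio of density was -0.25, -0.25 and -0.22 in the same classes. The density ratio differed more between classes of MT island length. That length is part of the density ratio and of the rule, so these values are a description only. Where the MT island was 600 bp or less, the 84 regions had a median log2 density ratio of -0.86 and none was denser in WT. The ratio was -0.39 at 800 to 1400 bp, -0.19 at 1600 to 2800 bp and -0.14 at 3000 bp or more, where 25.4% of 437 regions were denser in WT. Input density went the same way, from -0.53 in the shortest class to -0.045 in the longest.

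The share of unequal regions that were wider in WT fell with the span of the region. It was 38.3% (36.0 to 40.7%) for spans of 1200 to 3200 bp, 33.6% for 3400 to 4200 bp, 32.4% for 4400 to 5400 bp and 27.9% (25.6 to 30.4%) for 5600 to 9800 bp. By input density over both mice it lay between 31.6 and 35.0% in the quartiles, with overlapping intervals. By ChIP density it was 34.4, 35.4 and 33.8% in the lower quartiles and 29.8% (27.4 to 32.2%) in the highest. Span and density are built from the islands that chose the regions.

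Regions wider in WT were found on every chromosome with shared islands. On the autosomes the share of unequal regions that were wider in WT ran from 28.0% on chromosome 16 (66 of 236) to 36.8% on chromosome 4 (131 of 356). The intervals of all 19 autosomes included the overall 33.3%. On the X chromosome, which held few islands, the share was 10 of 23.

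**Figure D4:**
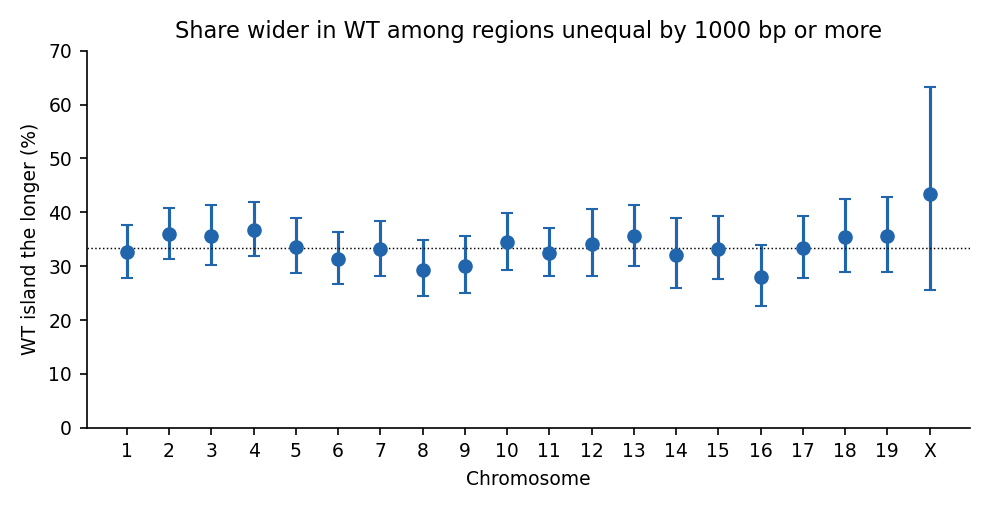
Share of regions with the WT island the longer, in percent, among the regions on each chromosome whose islands differed by 1000 bp or more. Bars are 95% Wilson intervals, which cover counting error only, and the dotted line is the share over all chromosomes, 33.3%; each autosome's interval includes it.

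The lengths of islands near the 1829 regions did not enter the rule, but those islands came from the same 2 lists and calls. A nearby island that overlapped a region would have been merged into it. The shares below are a description only. The WT list held 9364 islands with no MT partner and the MT list 12335 with no WT partner. Within 10 kb, 570 of the regions wider in WT (31.2%, 29.1 to 33.3%) had an island found in WT only, against 25.5% of the 11900 and 23.5% (22.1 to 24.9%) of the regions wider in MT. An island found in MT only lay within 10 kb of 619 (33.8%, 31.7 to 36.0%), against 37.1% and 40.3% (38.7 to 41.9%). The same order held within 2 kb, with 11.2% beside regions wider in WT against 8.07% beside those wider in MT for WT-only islands. It held within 50 kb too, with 67.7% against 61.0%. WT-only islands were still not the more frequent kind beside regions wider in WT, at 31.2% against 33.8% for MT-only islands.

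**Figure D5:**
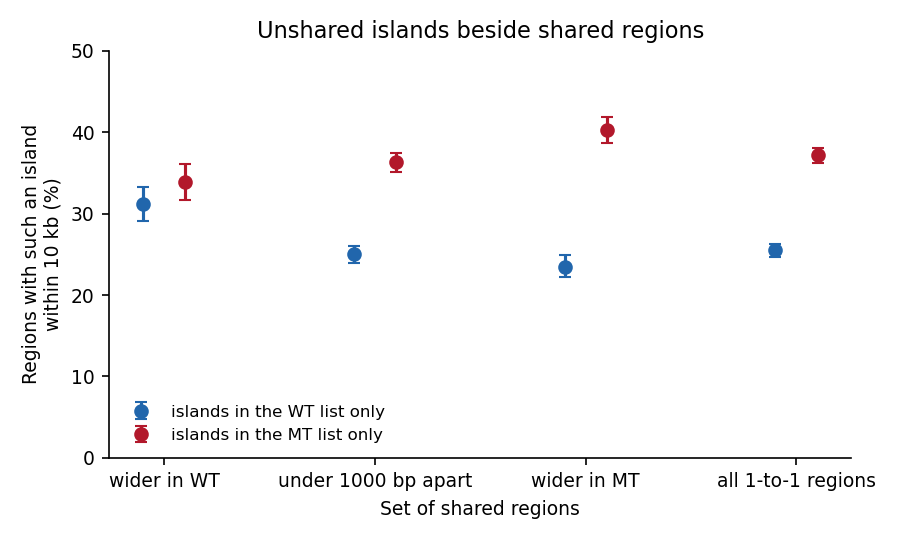
Percent of regions with at least 1 unshared island within 10 kb, by set of regions, for islands in the WT list only (blue) and in the MT list only (red). Bars are 95% Wilson intervals for counting error; WT-only islands are at 31.2% beside regions wider in WT and 23.5% beside those wider in MT, and MT-only islands at 33.8% and 40.3%.

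Shared regions under 1000 bp apart in length were compared by where they lay. The 817 regions under 1000 bp apart that lay within 20 kb of a region wider in WT had a median log2 ratio of ChIP reads of -0.035, and 44.2% (40.8 to 47.6%) had more scaled reads in WT. Beside regions wider in MT, the 1504 such regions had a median of -0.093 and a share of 37.3% (34.9 to 39.8%). Over all 6415 the median was -0.058 and the share 42.2%, which lies inside the interval beside regions wider in WT. The lengths in these sets still differed. The mean WT minus MT length was -34 bp beside regions wider in WT, -67 bp beside those wider in MT and -52 bp over all 6415. The median log2 ratios of ChIP density were -0.012, -0.043 and -0.019 in the same order. With the scaling used here, the median beside regions wider in WT was below 0, where the regions themselves had 0.66. The 0.66 follows largely from the rule that chose those regions. It became 0.74 with input set equal over those regions and 0.96 with the totals over all listed islands set equal. A change of scaling moves every log2 ratio of reads by the same amount. The sign of the -0.035 and the shares with more reads in WT thus depend on the scaling.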

How the data were processed

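ChIP-Seq of H4K16ac was analysed in liver of 1 WT and 1 MT mouse, with 1 ChIP and 1 input library each (4 libraries). Duplicate reads were removed and islands called by the authors, in windows of 200 bp with gaps of 400 bp. The submitters' processing notes name Bowtie 0.12.7, SICER 1.03 and the build mm8. The deposited counts are whole ChIP and input reads per island. The deposited fold divides ChIP by input reads, scaled for library size, a ratio for each island, and the authors' p-value and FDR test that excess, island by island, with an FDR limit of 0.001. Library totals are not given in the sources used here, so depth was compared only through the ratios given in the text. The estimate assumes that input reads per kb in shared regions reflect the size of the input library.

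Islands were merged at 1 bp of overlap. Shares have 95% Wilson intervals and read ratios exact Clopper-Pearson intervals. The work was done in Python 3.11.15 with pandas 2.3.3, numpy 2.4.6, matplotlib 3.10.9 and scipy 1.17.1. Positions are 1-based. The matching of islands, the scaling and the counting intervals were tested on simulated islands with the same expected density in both mice. That test did not cover the calling of islands. The regions, cutoffs and lists were chosen with earlier results of these data known. Regions named were the 10 with the largest length difference (ties by WT reads), the 5 with the highest and the 5 with the lowest log2 ratio of reads, the 5 with the most WT ChIP reads and the 3 with the highest WT fold; others are marked where they occur. Alternatives were other limits on FDR, fold, reads, length difference and span, autosomes alone, nested islands and other scalings.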

Additional observations from a re-analysis of the deposited data

How the results depend on the processing

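The 6 main values were recomputed under 12 alternatives (9 for the number and share of regions and for the fold), which gave 63 values, 28 of them within counting error or, for the number of regions, within 1.5 times. The values below are, in order, the median log2 ratios of WT over MT of ChIP reads, ChIP density, input density and the authors' fold (0.66, -0.24, -0.10 and -0.15 as reported). The direction turned under one scaling alone: with the totals over all listed islands set equal, ChIP density was 0.057 and input density 0.23 (ChIP reads 0.96). The totals were 2916128 and 2264125 ChIP reads, so this scaling raises WT by construction. With input set equal over the chosen regions the first 3 were 0.74, -0.16 and -0.016, and without scaling 0.59, -0.31 and -0.22.

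The number of regions moved to 803 at a fold of at least 2 and to 636 at 2000 bp longer, from 1829. The share wider in WT, 33.3% as reported, was 31.8% at an FDR of at most 1e-05, 31.7% with at least 95% of the shorter island inside the longer, 35.4% for spans below 5000 bp, 35.7% at 600 bp longer and 27.2% at 2000 bp longer. ChIP reads moved to 0.61 (FDR), 0.56 (at least 50 reads), 0.51 (600 bp), 1.001 (2000 bp) and 0.69 (inside). ChIP density moved to -0.26 (fold, and inside), -0.21 (50 reads), -0.22 (600 bp) and -0.29 (span). Input density moved to -0.066 (FDR), -0.14 (fold, and span) and -0.055 (2000 bp), and the fold to -0.19 (FDR), -0.12 (fold), -0.13 (50 reads, and 600 bp) and -0.18 (2000 bp). With autosomes alone or no limit on span all 6 stayed within counting error. With 1 library per condition, no setting measures the spread between animals, and MT reads under the added WT length were not analysed here.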

Other observations

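The 1829 regions wider in WT fell into 998 bins of 1 Mb, of which 501 held 1 such region. The most in a bin was 7, in 6 bins, which were chosen after their values were seen. Between 134 and 135 Mb of chromosome 4 there were 7 regions wider in WT and 1 wider in MT. The counts were 7 and 2 between 109 and 110 Mb of chromosome 11 and between 134 and 135 Mb of chromosome 6. They were 7 and 9 between 46 and 47 Mb of chromosome 17.

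Taken in order along a chromosome, the longest rows of unequal regions that were all wider in WT held 9 regions. One lay at chr3:132693001-135338600 and the other at chr19:23127001-28080400. The log2 ratios of ChIP reads ran from 0.33 to 1.64 in the first and from 0.41 to 1.37 in the second. The first row includes chr3:132941801-132947800, one of the 2 regions that were at least 1.5-fold denser in WT. Of 1103 pairs of neighbouring unequal regions at most 20 kb apart, 132 (12.0%) were both wider in WT, 561 both wider in MT and 410 mixed. Of the regions that made up these pairs, 30.6% were wider in WT, against 33.3% of all unequal regions. The rows were picked as the longest. No test was run on these rows or pairs, so whether they depart from a random order is not known.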
